A study of Mus musculus with 46 samples.

Results

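The 8 genes followed here, Ccr2, Ly6c2, Plac8, Cd24a, Emr4, Cd300e, Emr1 and Vcan, are used to tell macrophages that descend from blood monocytes from the resident microglia of the brain. They were taken by gene symbol from a count table of 23329 mouse genes, and all 8 were present and passed the filters on low counts. Emr1 and Emr4 are older symbols of Adgre1 and Adgre4. They were chosen by name for what they are known for, with earlier results of these libraries known.

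Microglia settle in the brain before birth and renew themselves there, whereas monocytes are made in bone marrow and enter inflamed or tumour-bearing brain from the blood. Inflammatory monocytes leave the marrow through the chemokine receptor CCR2, carry the surface antigen Ly6C and also express Plac8 and versican (Vcan). Patrolling monocytes, which crawl along vessel walls with little Ly6C, express Emr4 and Cd300e. F4/80, the product of Emr1, is made by most tissue macrophages of the mouse, microglia included, and CD24 is found on many immature blood cells, on some dendritic cells and on neural precursors.

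Tumours were gliomas of nTVA mice with both copies of Ink4a/Arf deleted, and every group, the vehicle group included, carried this deletion. DF1 cells, a chicken fibroblast line that sheds the RCAS-PDGFB-HA virus, had been injected into the brain when the mice were 5 to 6 weeks old. Bone marrow-derived macrophages (BMDM) were gated on CD45 and CD11b as Ly6C-, Ly6G- and CD49d+ cells, and microglia (MG) as the matching CD49d- cells. Both populations came from each of 23 mice, which gives 46 libraries. The mice were given vehicle (4 mice), were taken after 5 days of BLZ945, an inhibitor of the CSF1 receptor kinase (4), of radiation, labelled IR (2), or of both (3), or were taken with recurrent tumours after BLZ945 (2), IR (4) or IR+BLZ945 (4). The series asked how the 2 populations respond to these therapies in regressing and in regrown tumours. The gate took out Ly6C+ cells on both sides and split the rest by CD49d, so the Ly6c2 level describes what was left after that gate. A sorted population is a mixture, and fewer cells of a type cannot be told apart from less RNA per cell.

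Sequence just upstream of the annotated start is shown for the 3 genes whose window lay wholly outside the annotated gene and which differ between the populations below. Each is 150 bases long, read 5′ to 3′ on the strand of the gene, from RefSeq on GRCm38.p6. Capitals mark matches, on either strand, to an ETS core as bound by PU.1 (AGGAAG), a C/EBP core (TTGCNNAA) or a RUNX core (TGTGGT).
Emr4 (chr17:55749834-55749983, plus strand): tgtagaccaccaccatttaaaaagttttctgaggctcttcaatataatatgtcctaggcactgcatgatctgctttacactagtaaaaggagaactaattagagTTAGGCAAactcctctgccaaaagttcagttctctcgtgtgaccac
Ly6c2 (chr15:75112067-75112216, minus strand): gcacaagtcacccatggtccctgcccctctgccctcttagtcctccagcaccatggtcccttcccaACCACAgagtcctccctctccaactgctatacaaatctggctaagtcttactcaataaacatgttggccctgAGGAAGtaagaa
Plac8 (chr5:100572254-100572403, minus strand): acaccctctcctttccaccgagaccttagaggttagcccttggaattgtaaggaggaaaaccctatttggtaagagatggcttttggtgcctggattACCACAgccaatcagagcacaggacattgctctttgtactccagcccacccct
Emr4 held 1 C/EBP match, Plac8 1 RUNX match, and Ly6c2 1 RUNX and 1 ETS match. Of 32851 promoters with a window of the same length, 5.46% held the C/EBP letters, 8.4% the RUNX letters and 19.7% the ETS letters. A pattern of the interferon regulatory factors was looked for too and was in none of the 3 windows and in 1.59% of all promoters. Of the 8 genes, 6 were in the promoter table, and Cd24a and Emr1 were not. Bases just downstream of the start used were found in a GENCODE transcript of the gene for Emr4 and Plac8. For Ly6c2 they were not, so the place of its window is less certain. A match is a run of letters and says nothing of binding in these cells.

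Total counts ran from 3007379 to 16993474 reads, with a median of 11730650.5. The Itga4 transcript, which encodes CD49d, stood at 30.7 to 188 CPM, reads scaled to the TMM-adjusted library total (median 90.8), in the 23 BMDM libraries and at 1.43 to 10.1 CPM (median 3.64) in the 23 MG libraries, so the labels and the gate go together. Ptprc (CD45) and Itgam (CD11b) were read in every library, and Cdkn2a, the deleted gene, was at 2.44 CPM or less. A set of 6 libraries stands apart. In 5 of them fewer than 11000 genes had 10 or more reads: BMDM of the 5-day BLZ945 mice 122 and 124 and of the 5-day IR mouse 65698, MG of the 5-day IR+BLZ945 mouse 65971 and MG of the recurrent IR mouse 68344. In mouse 65698 the sex-linked genes of the BMDM and MG libraries did not match, so its MG library is the sixth, and the 2 libraries may not come from 1 animal. Results are given with and without these 6 where that changes a call. Sex-linked genes also sorted unevenly over the stages. By the larger of Xist and Y-linked reads, every recurrent IR mouse was Y-linked and every 5-day BLZ945 mouse was Xist. In vehicle, mouse 41 was Y-linked and mice 78, 65966 and 65967 were Xist. Comparisons between such stages thus differ in the mix of sexes too, and its part was not tested. The 5 mice with 2- or 3-digit numbers are vehicle mice 41 and 78 and 5-day BLZ945 mice 122, 123 and 124, and the labels do not say what the numbering marks. Reads of Lars2 were many in recurrences: 2757 to 8069 CPM in recurrent BMDM and 3162 to 38090 CPM in recurrent MG, against 3.64 to 830 CPM in BMDM and 34 to 373 CPM in MG at 5 days, and MG of vehicle mice 41 and 78 was also high (12.1 and 13.9 log2 CPM). Malat1 went the other way. Recurrent BMDM and MG held 214 to 1775 and 235 to 1252 CPM of it, against 2273 to 17000 and 1502 to 5580 CPM at 5 days. Vehicle BMDM and MG held 2556 to 9384 and 489.5 to 1319 CPM. Vehicle BMDM held 7.88 to 216 CPM of Lars2, below all recurrent BMDM, and its Malat1 lay above all recurrent BMDM. A change from 5 days to recurrence cannot be told apart from such shifts between libraries. In BMDM the same holds for a change from vehicle to recurrence.

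BMDM carried more of 6 of the 8 transcripts than MG. Within mice, Ccr2, Plac8 and Cd24a were higher in BMDM in 23 of 23, Ly6c2 and Emr4 in 22, and Cd300e in 21. Emr1 was higher in BMDM in 13 mice and in MG in 10, and Vcan was higher in BMDM in 5 and in MG in 16, with no read in either library of the other 2. Below, a log2 fold change is BMDM over MG, with its standard error, from edgeR's quasi-likelihood test over all 46 libraries, and a gene passed at a Benjamini-Hochberg adjusted p under 0.05 over 15901 genes.

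In vehicle mice 6 of the 8 genes passed, all higher in BMDM, where 5.3% of all tested genes were higher and 3.84% lower. The same 6 were higher after 5 days of BLZ945 (10.3% of all genes), and Emr1 was lower (11.6%). Of the 8, 5 were higher after 5 days of IR (4.13%) and 5 after 5 days of IR+BLZ945 (7.11%). In recurrent tumours 1 gene was higher where BLZ945 had been given (0.0818%), 3 where IR had (1.36%) and 3 where both had (2.77%). The median log2 fold change of the 8 genes was 4.79 in vehicle, then 6.73, 5.20 and 4.31 at 5 days of BLZ945, IR and IR+BLZ945, and 1.95, 2.42 and 2.503 in the recurrences in the same order. The median of all genes stayed between -0.19 and 0.03.

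**Figure D1:**
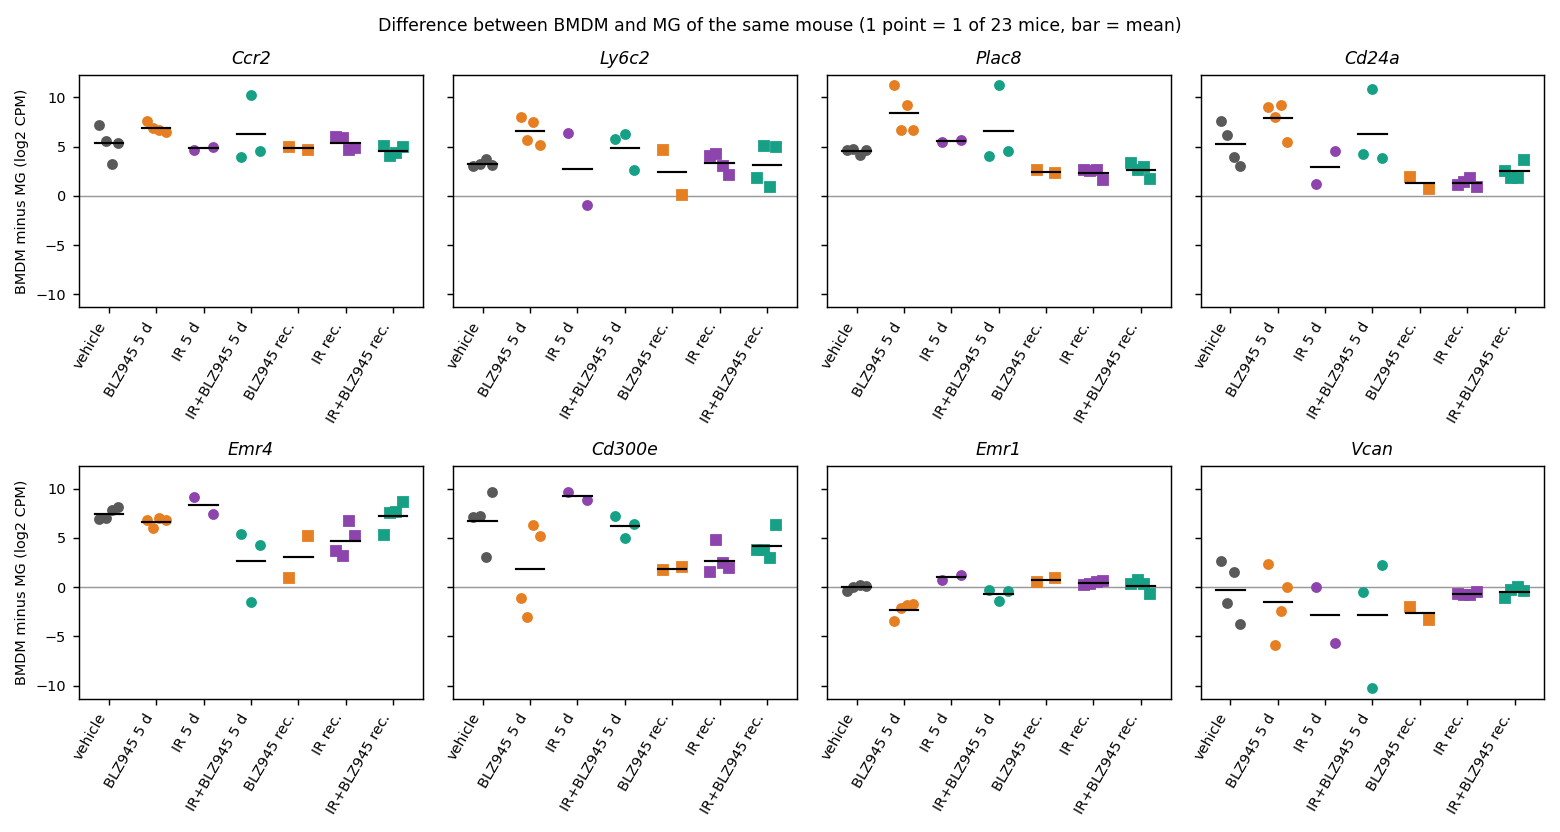
Difference in log2 CPM between the BMDM and the MG library of the same mouse, 1 point per mouse and a bar at the mean of each stage, for the 8 genes. Ccr2, Plac8 and Cd24a lie above 0 in all 23 mice, Emr1 lies below 0 in all 4 mice after 5 days of BLZ945, and Vcan lies at or below 0 in 18 mice.

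**Figure D2:**
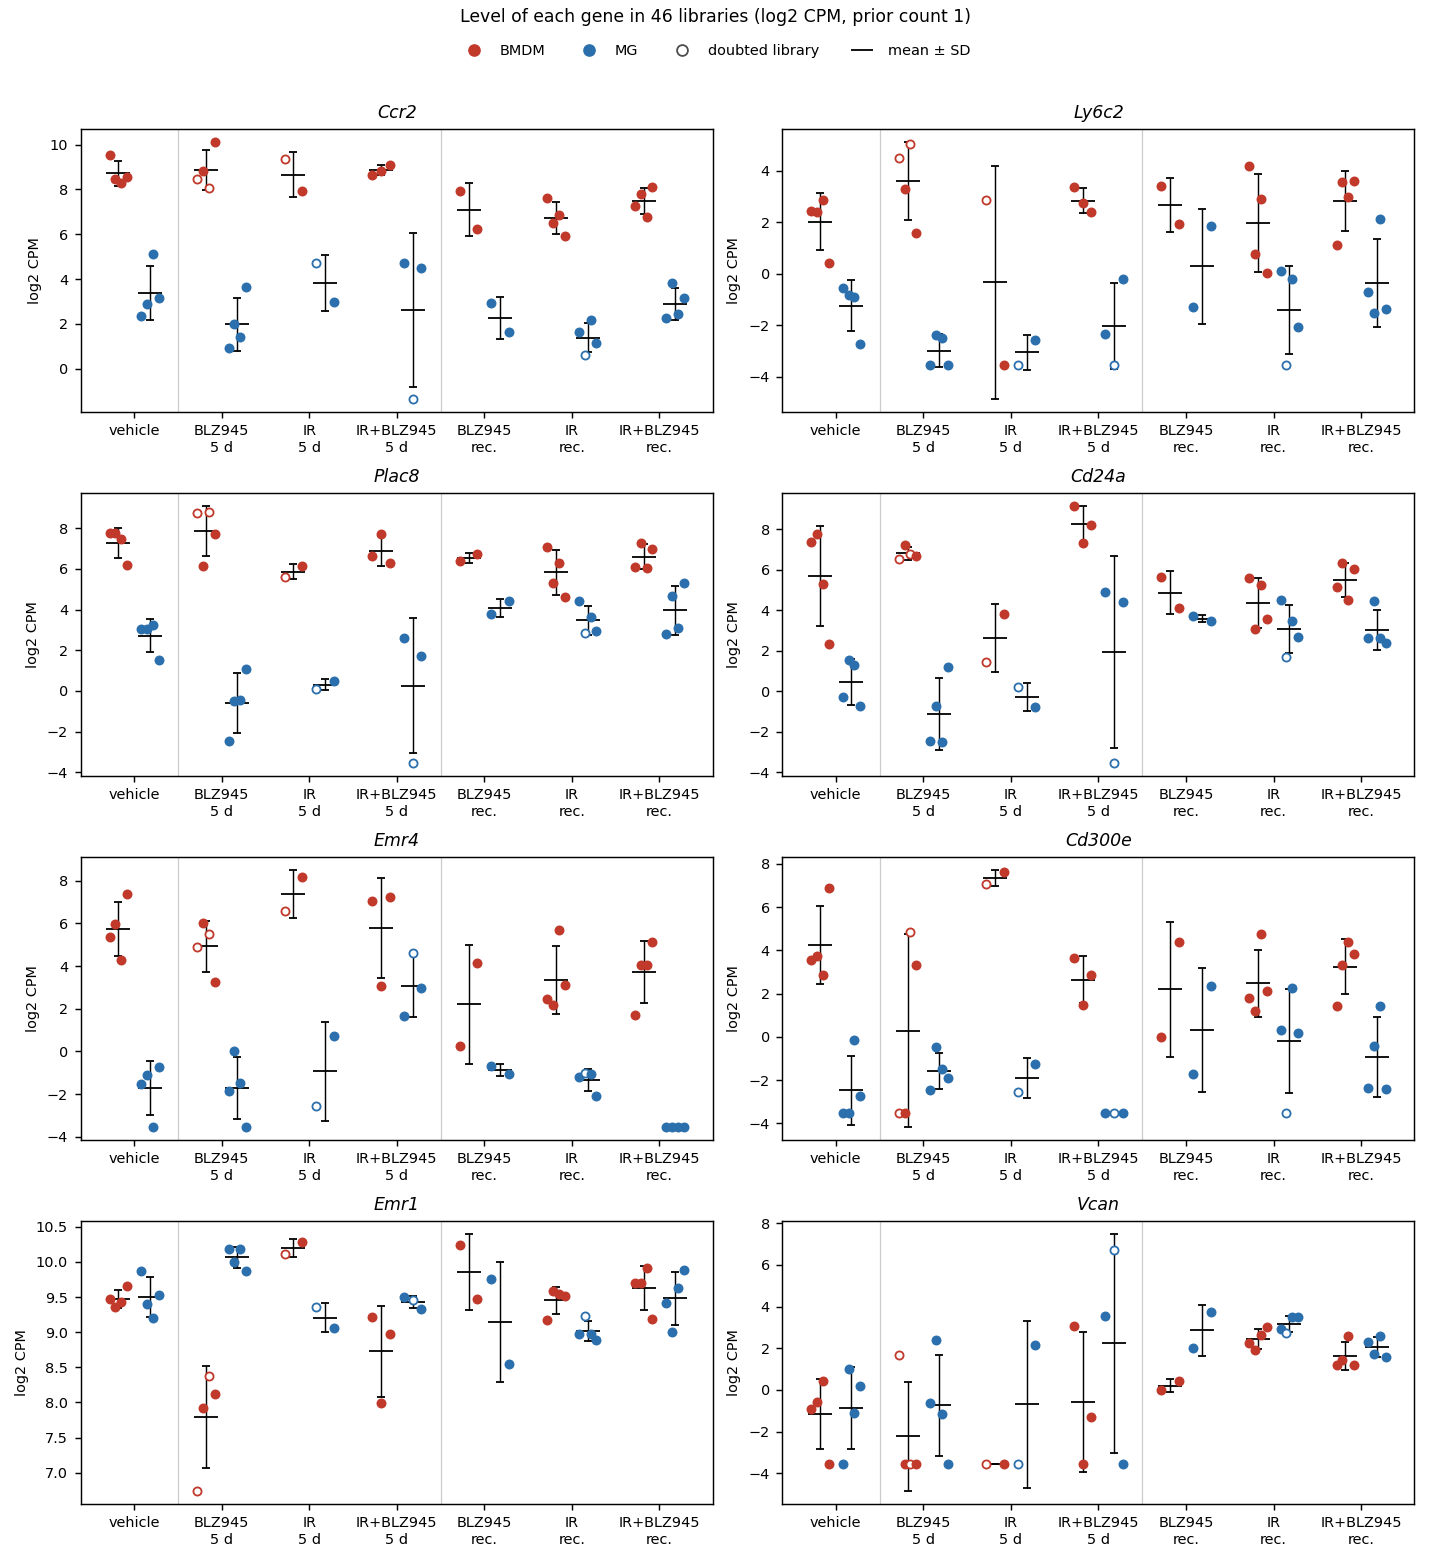
Level of each gene (log2 CPM, prior count of 1) in the 23 BMDM and 23 MG libraries by stage, with the mean and SD of each group. Open symbols are the 6 libraries that stand apart, and the lowest possible value, about -3.53, is a library without a read.

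Set against vehicle within each population, few of these genes moved. In MG, 3 of 48 gene-by-stage tests passed (8 genes, 6 treated stages), against 4.74% of all such tests, and all 3 were rises after 5 days of IR+BLZ945 (Cd24a, Emr4 and Vcan; 9.55% of all genes were higher in that comparison). In BMDM, 2 of 48 passed, against 1.51%: Emr1 was lower after 5 days of BLZ945 and Ccr2 was lower in recurrences after IR. The first count lies near its background. The other 5 MG stages gave no call, where 0.303%, 1.99%, 3.53%, 4.33% and 4.82% of all genes passed (5 days of BLZ945 and of IR, then the 3 recurrences), and neither did the other 4 BMDM stages, where 1.07%, 0.57%, 0% and 0.0275% did (5 days of IR and of IR+BLZ945, recurrences after BLZ945 and after IR+BLZ945). In the 3 comparisons with calls, 13.4% of all genes passed in MG after 5 days of IR+BLZ945, 5.51% in BMDM after 5 days of BLZ945 and 1.87% in BMDM recurrences after IR. At the stages with no call between 1 and 4 genes had an unadjusted p under 0.05, and DESeq2 called 0 or 1.

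Set against 5 days of the same therapy, a larger share of tests passed in MG than against vehicle, among these genes and among all genes. Of 24 tests, 6 passed, against 15.9% of all such tests (4.74% against vehicle). Plac8 rose in all 3 therapies, Cd24a and Ly6c2 rose after BLZ945, and Emr4 fell after IR+BLZ945. By therapy, 8.24%, 11.6% and 28.1% of all genes passed in MG for BLZ945, IR and IR+BLZ945, and 6.82%, 12.5% and 3.69% in BMDM. In MG 3, 1 and 2 of the 8 passed in the same order, near the share of all genes for IR and IR+BLZ945. In BMDM, 3 of 24 passed, against 7.69%: Emr1 rose after BLZ945, and Ccr2 and Emr4 fell after IR. None passed in BMDM after IR+BLZ945, where 4 genes had an unadjusted p under 0.05 and DESeq2 called 1. An F-test over the 7 stages passed for 5 genes in MG (Plac8, Emr4, Cd24a, Emr1 and Vcan), where 37.4% of all genes did, and for 4 in BMDM (Ccr2, Plac8, Cd24a and Emr1), where 20.7% did. The Plac8 test in BMDM (adjusted p = 0.0477) was lost in 17 of 23 left-out fits. In separate fits it was also lost without the low-count filter (adjusted p = 0.0671), with number style as a term (0.44) and without the 6 libraries (0.363). Leaving out those 6 added Ccr2 in MG (0.0424) and Vcan in BMDM (0.0329).

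The response to treatment itself was compared between the populations as BMDM minus MG at a stage, less the same difference in vehicle. Of 48 tests 2 passed, against 0.351% of all such tests, both after 5 days of BLZ945 (1.65% of all genes): Emr1 (-2.13 ± 0.38, adjusted p = 0.00152) and Plac8 (3.83 ± 0.94, adjusted p = 0.0236). None passed at the other 5 stages, where 0.0755%, 0.358%, 0%, 0.0189% and 0% of all genes did (5 days of IR and of IR+BLZ945, then the 3 recurrences), and where 1 to 3 genes had an unadjusted p under 0.05 and DESeq2 called 0 or 1.

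**Figure D3:**
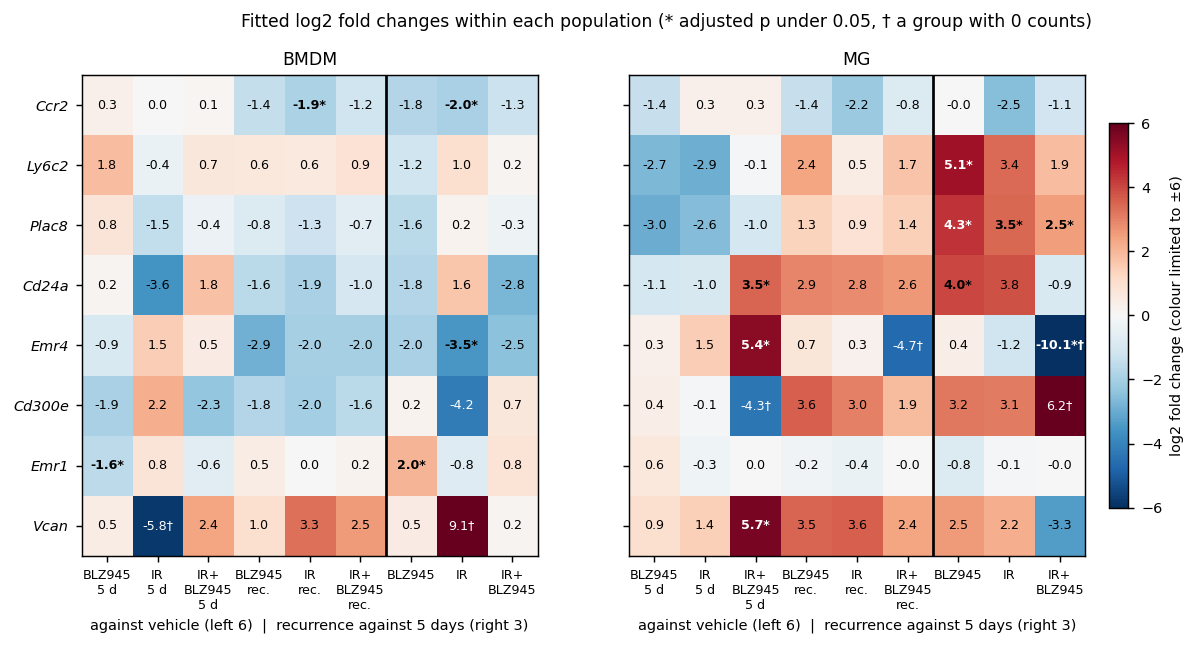
Fitted log2 fold changes of the 8 genes within BMDM and within MG, for 6 treated stages against vehicle and 3 recurrences against 5 days of the same therapy. A star marks an adjusted p under 0.05, and a dagger marks a group without a read, where the fitted value is no measure of size.

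Ccr2 (chr9:124101918-124109140) encodes the receptor for CCL2 by which inflammatory monocytes leave the marrow and enter tissue. In vehicle mice it stood at 741, 355, 317 and 378 CPM in BMDM, against 5.01, 7.34, 34.4 and 8.93 CPM in MG of the same mice. The groups did not overlap, and over all stages the lowest BMDM library (61.4 CPM) lay above the highest MG library (34.4 CPM). Its log2 fold change was 5.01 ± 0.75 in vehicle (adjusted p = 9.52e-06) and 6.73 ± 0.81 after 5 days of BLZ945 (adjusted p = 7.01e-08), and it was the only gene of the 8 to pass at all 7 stages. In recurrences after BLZ945, where there were 2 mice, BMDM held 244 and 76.3 CPM, against 7.56 and 2.98 CPM in MG (4.94 ± 1.06, adjusted p = 0.047). That call was lost without any 1 of the 4 libraries (adjusted p 0.0595 to 1) and without the low-count filter (adjusted p = 0.0997), and after 5 days of IR it was lost without MG of mouse 65972 (adjusted p = 0.1).

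Within BMDM, Ccr2 was lower in recurrences after IR. It stood at 197, 89.8, 116 and 61.4 CPM in recurrences after IR, against 657 and 247 CPM after 5 days of IR and the vehicle values above. The recurrent IR libraries lay below every library of both other groups. Against vehicle, the mix of sexes, Lars2 and Malat1 differed as well, as given above, and their part was not tested. The change was -1.92 ± 0.48 against vehicle (adjusted p = 0.0427) and -1.96 ± 0.55 against 5 days (adjusted p = 0.0244). Against vehicle the call was lost without any of 7 of the 8 libraries, all but recurrent mouse 68343 (adjusted p 0.0563 to 0.151), and among mice with 5-digit numbers alone the value was -1.58 (adjusted p = 0.093). Without the low-count filter its adjusted p was 0.0569, and with both populations in 1 fit it was 0.0803 against vehicle and 0.0619 against 5 days. Against 5 days it was -1.15 without the 6 libraries that stand apart (adjusted p = 0.239), since IR mouse 65698 is one of them, and it was also lost without that mouse alone or recurrent mouse 68344 or 68346 (adjusted p 0.0606 to 0.379). Recurrences after BLZ945 (244 and 76.3 CPM) stood at -1.75 ± 0.62 against 5 days of BLZ945 (adjusted p = 0.0966), and passed without the 6 libraries (-2.29, adjusted p = 0.0358).

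CCR2 is also carried by some dendritic cells and T cells, and markers of both moved with it in BMDM, although most T cells lack CD11b and the gate should remove them. Summed over 9 dendritic cell genes, BMDM held 90.3 to 191 CPM in recurrences after IR, against 2359 to 2417 CPM after 5 days of IR and 879 to 1460 CPM in vehicle. Of these 9 genes 5 fell against vehicle, and each of the 9, Flt3 and Zbtb46 among them, was read in at least 1 library of each group. Summed over 12 T and NK cell genes, the same BMDM groups held 5.36 to 22.4, 45.8 to 87.8 and 31.1 to 401 CPM, and 4 of 12 fell against vehicle (Cd3e had no read after 5 days of IR). Their part in the Ccr2 values was not tested. The list of CCR2 ligands held 4 chemokine transcripts, Ccl2, Ccl7, Ccl8 and Ccl12, and whether each product binds mouse CCR2 was not checked. None passed between BMDM and MG in vehicle, 3 having an unadjusted p under 0.05. Ccl7 stood at a log2 fold change of 2.81 ± 0.96 and Ccl12 at -1.80 ± 0.61 (adjusted p = 0.058 and 0.0556). Summed over the 4, BMDM held 767 to 1418 CPM in recurrences after IR, against 13190 to 15540 CPM after 5 days of IR, where 3 of 4 fell, and 497 to 2351 CPM in vehicle. After 5 days of IR, MG held 684 to 1250 CPM of them.

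Ly6c2 (chr15:75108161-75112066) encodes Ly6C2, part of the antigen that the gate excluded. A low level remained in BMDM: 5.34, 5.12, 7.10 and 1.24 CPM in vehicle, against 0.593, 0.477, 0.446 and 0.0652 CPM in MG. The groups did not overlap (3.55 ± 1.15, adjusted p = 0.0428), but the call was lost without any of 7 of the 8 libraries (adjusted p 0.0719 to 0.134). With 5 days of BLZ945 BMDM held 22, 9.6, 32.4 and 2.93 CPM, and the 4 MG libraries held 0, 0.104, 0.0911 and 0 CPM. That was 692 reads in BMDM against 2 in MG, a ratio of 321 with a 95% counting interval of 88.4 to 2653 (adjusted p = 7.31e-05). The difference stood in each left-out fit and without the 6 libraries.

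The Ly6c2 call after 5 days of IR (adjusted p = 0.0479) rested on the BMDM library of mouse 65698 (7.18 CPM), since that of mouse 65972 had no read. The 2 MG libraries held 0 and 0.0824 CPM, 1 read in all, and without the libraries of mouse 65698 the value turned to -3.16 (adjusted p = 0.657). With the mouse as a block it was 4.74 (adjusted p = 0.239), and the call was also lost without the low-count filter or without MG of either mouse (the left-out fits ran from -2.27 to 8.37, with adjusted p up to 0.815). With 5 days of IR+BLZ945 BMDM held 10.3, 6.6 and 5.15 CPM, against 0.11, 0 and 0.773 CPM in MG (4.34 ± 1.41, adjusted p = 0.035), and 4 of the 6 left-out fits did not pass (adjusted p 0.0557 to 0.116), those without either library of mouse 65696 or 65971. In recurrences the spread was wide: BMDM held 0.942 to 17.8 CPM (median 7.53) and MG 0 to 4.27 CPM (median 0.427), and no recurrent stage passed. Against 5 days of IR, where 1 library is then left and has no read, recurrent BMDM after IR passed without the 6 libraries (adjusted p = 0.0407).

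In MG, Ly6c2 was higher in recurrences after BLZ945 than after 5 days of the drug. It stood at 0.324 and 3.53 CPM in recurrent MG, against the 2 reads in 4 libraries given above (5.08 ± 1.51, adjusted p = 0.0398). The rise was mostly that of mouse 70696, and the call was lost in 5 of 6 left-out fits, all but that without mouse 67668 (adjusted p 0.0645 to 0.523). In separate fits it was also lost with number style as a term (adjusted p = 0.0783) and without the low-count filter (adjusted p = 0.0504). Its neighbour Ly6c1 shares sequence with it: 13.9% of the 50-base words of Ly6c2 transcripts also occur in Ly6c1. In MG, Ly6c1 stood at 1.7 to 5.72 CPM in the 10 recurrent libraries, against 0 to 0.843 CPM in the 9 at 5 days and 0.264 to 1.24 CPM in vehicle. Reads of the pair may have been split or lost in counting, and the Ly6c2 values in MG are uncertain to that extent.

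Plac8 (chr5:100551589-100572253) encodes a small cysteine-rich protein of the cell interior that is abundant in inflammatory monocytes. In vehicle BMDM held 216, 216, 174 and 72.4 CPM, against 8.23, 8.11, 9.51 and 2.80 CPM in MG. No mouse overlapped the other population, and the differences within mice were nearly alike, from 4.18 to 4.72 on the log2 scale (fitted 4.57 ± 0.70, adjusted p = 1.35e-05). Under BLZ945 for 5 days BMDM held 434, 71.5, 441 and 211 CPM, and every MG library lay below all vehicle MG libraries, at 0.0937, 0.625, 0.638 and 2.03 CPM. The log2 fold change between the populations was then 8.39 ± 0.85 (adjusted p = 1.93e-09), and it passed in every alternative and left-out fit at all 4 stages up to 5 days.

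The wider gap after BLZ945 was past the threshold as a difference in response (3.83, above), but not without the 6 libraries, which include BMDM of mice 122 and 124 (2.79 ± 0.96, adjusted p = 0.125). It was also lost without MG of mouse 122, 123 or 124 or BMDM of vehicle mouse 65967 (adjusted p 0.0523 to 0.0671). Within MG the value after 5 days of BLZ945 against vehicle was -2.998 ± 0.802 (adjusted p = 0.0876), and without the 6 libraries it passed (adjusted p = 0.0223).

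Recurrent tumours had more Plac8 in MG than tumours at 5 days. The 10 recurrent MG libraries stood at 6.79 to 39 CPM (median 13), the 9 at 5 days at 0 to 6.06 CPM (median 0.9946), and these ranges did not overlap. Lars2 and Malat1 also split these MG libraries without overlap, as given above. BMDM overlapped, at 24.1 to 155 CPM (median 80.5) in recurrences and 48.5 to 441 CPM (median 98.7) at 5 days. The rise in MG against 5 days was 4.33 ± 0.90 after BLZ945 (13.6 and 21 CPM in recurrences; adjusted p = 0.00457), where it passed in every alternative and left-out fit. It was 3.45 ± 1.07 after IR (adjusted p = 0.0393) and 2.49 ± 0.84 after IR+BLZ945 (adjusted p = 0.0326). The IR call was lost in all 6 left-out fits (adjusted p 0.0512 to 0.217) and the IR+BLZ945 call without mouse 65971, 67537, 67543 or 68362 (adjusted p 0.0597 to 0.101). Without the 6 libraries they stood at 3.51 and 2.01 (adjusted p = 0.0646 and 0.067).

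Between the populations in recurrent tumours, Plac8 stood at a log2 fold change of 2.51 ± 0.63 after IR and 2.39 ± 0.63 after IR+BLZ945 (adjusted p = 0.0247 and 0.0175). After IR the call was lost without MG of mouse 68344, 68345 or 68346 or BMDM of 68343 or 68345 (adjusted p 0.0713 to 0.2), and without the 6 libraries it was 2.33 (adjusted p = 0.0504). After IR+BLZ945 it was lost without MG of mouse 67169 or 67947 or BMDM of 67543 or 68362 (adjusted p 0.0517 to 0.0881). Of 20 other genes of blood-derived macrophages, 4, 5 and 3 rose in recurrent MG against 5 days of BLZ945, IR and IR+BLZ945, and 1 fell, after BLZ945. Those are 5, 5 and 3 of 20 that passed, where 8.24%, 11.6% and 28.1% of all genes did, and for IR+BLZ945 the share of the list is below that of all genes. Reads of glioma and oligodendrocyte precursor genes and of Lars2 were higher in the same libraries, and those of Malat1 lower, as given with Vcan and above. Their part in the Plac8 values was not tested.

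Cd24a (chr10:43579169-43584265) encodes CD24, a sugar-coated surface protein bound by Siglec-G and P-selectin. It varied more among BMDM libraries than Ccr2 or Plac8 did: 162, 213, 38.8 and 5.01 CPM in vehicle, against 0.725, 2.86, 2.38 and 0.521 CPM in MG. The lowest BMDM library still lay above all MG libraries of that stage (6.03 ± 1.03, adjusted p = 6.90e-05). Under BLZ945 for 5 days the BMDM libraries lay close together at 92.9, 150, 108 and 102 CPM, against 0.0937, 0.52, 0.0911 and 2.21 CPM in MG (7.25 ± 1.11, adjusted p = 4.44e-06). The highest BMDM levels followed 5 days of IR+BLZ945, at 563, 160 and 298 CPM, and the lowest 5 days of IR, at 2.59 and 13.8 CPM.

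In MG, Cd24a rose after 5 days of IR+BLZ945, to 29.9, 0 and 21.3 CPM in mice 65696, 65971 and 67537, against the vehicle values above (3.51 ± 1.04, adjusted p = 0.0324). The library without a read is the shallowest of the series, and without the 6 libraries the rise was 4.08 ± 0.82 (adjusted p = 0.00507). With number style as a term it was 2.78 (adjusted p = 0.175), among mice with 5-digit numbers alone 3.56 (adjusted p = 0.181), and it was lost without mouse 65696 or any vehicle mouse (adjusted p 0.0521 to 0.105). Markers of other cells were higher in the same MG libraries. Summed over 5 choroid plexus genes, MG held 1713, 22.3 and 1608 CPM in mice 65696, 65971 and 67537, against 0.892 to 5.47 CPM in vehicle, and all 5 rose (9.55% of all genes did). Summed over 8 neuron genes, it held 30.6, 22.7 and 28.1 CPM, against 1.34 to 4.28 CPM, and 4 of the 7 tested rose. No gene of either list was at 0 in this MG group. Neutrophil genes overlapped (summed 463 to 678 CPM, against 286 to 788 CPM in vehicle), and 1 of 8 tested rose. In BMDM at 5 days, over all therapies, the choroid plexus list reached 707 CPM (median 3.04) and the neuron list 99.2 CPM (median 10.2). Vehicle BMDM held at most 0.691 and 6.44 CPM. No gene of either list was at 0 in BMDM after 5 days of IR+BLZ945, where BMDM held the most Cd24a. The part of such cells in the Cd24a values of either population was not tested.

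Recurrent MG held 3.12 to 22.4 CPM of Cd24a (median 8.56), above all 4 vehicle libraries. Against 5 days the rise passed after BLZ945 (13.1 and 10.9 CPM in recurrences; 4.00 ± 1.15, adjusted p = 0.0347), but not without mouse 122, 123, 124, 67668 or 70696 (adjusted p 0.0811 to 0.121) or with the number style term (3.46, adjusted p = 0.139). Against vehicle, the 3 recurrent stages stood at 2.94, 2.82 and 2.58 (adjusted p 0.122 to 0.165), and all 3 passed without the 6 libraries (2.95, 3.13 and 2.59 after BLZ945, IR and IR+BLZ945, with adjusted p of 0.0316, 0.014 and 0.0255). The F-test over MG stages (adjusted p = 0.00831) was 0.0761 with number style as a term.

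In BMDM the recurrent libraries held 8.43 to 79.4 CPM of Cd24a (median 36.3), against 2.59 to 563 CPM at 5 days (median 108). Within mice the excess in BMDM was 0.659 to 3.64 on the log2 scale in recurrences (median 1.804), against 1.199 to 10.9 at 5 days (median 5.47) and 3.07 to 7.64 in vehicle (median 5.08). No recurrent stage passed between the populations, and with the mouse as a block 1 did, after IR+BLZ945 (2.47, adjusted p = 0.0465). CD24 is also a marker of dendritic cells and neural precursors. Summed dendritic cell genes in BMDM ranged from 90.3 to 653 CPM in recurrences, against 2359 to 3990 CPM at 5 days, and the glioma list moved in MG as given with Vcan. Their part was not tested.

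Emr4 (chr17:55749984-55853662) encodes an adhesion G protein-coupled receptor related to F4/80, found on patrolling monocytes and some tissue macrophages. In vehicle BMDM held 41.1, 61.9, 19.5 and 164 CPM, against 0.264, 0.381, 0 and 0.521 CPM in MG. The gap was the widest of the 8 genes at that stage (7.89 ± 1.22, adjusted p = 2.22e-05). It passed at all stages but 2, 5 days of IR+BLZ945 (3.08 ± 1.09, adjusted p = 0.0548, and 0.0477 without the 6 libraries) and recurrences after BLZ945 (adjusted p = 0.562). Without the 6 libraries 5 days of IR no longer passed, with 1 mouse left (7.53, adjusted p = 0.057). In recurrences after IR+BLZ945, BMDM held 3.18, 16.3, 16.4 and 34.8 CPM, and no Emr4 read was found in any of the 4 MG libraries: 876 reads against 0, at least 227-fold higher in BMDM with a floor of 3 reads over the group.

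Emr4 was scarce in MG at every stage but 1. In 5-day IR+BLZ945 mice it stood at 3.08, 24.5 and 7.82 CPM in MG of mice 65696, 65971 and 67537, above each of the other 20 MG libraries (1.56 CPM or less) and against the vehicle values above. The rise was 5.43 ± 1.15 (adjusted p = 0.00906) and 4.27 ± 1.06 without the 6 libraries, mouse 65971 among them (adjusted p = 0.0211). It stood at an adjusted p of 0.05002 without vehicle mouse 41, and among mice with 5-digit numbers alone it was 5.40 (adjusted p = 0.126). In recurrences after the same therapy the 4 MG libraries held 0 reads against 199 at 5 days, at least 102-fold lower (adjusted p = 0.000745), which passed in every alternative and left-out fit. Choroid plexus and neuron genes were also higher in MG after 5 days of IR+BLZ945, as given with Cd24a, and mouse 65971, with the most Emr4, had the least of both. Their part in the Emr4 values was not tested.

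In these MG libraries Ccr2 stood at 26.1, 0.306 and 22.8 CPM in mice 65696, 65971 and 67537, against 5.01, 7.34, 34.4 and 8.93 CPM in vehicle MG. It was thus above 3 of the 4 vehicle libraries in mice 65696 and 67537 and below all 4 in mouse 65971. Mouse 65971, with the most Emr4, had 1 read of Ccr2, no read of Plac8, Cd24a or Cd300e, and 8.34 CPM of Emr4 in its own BMDM library. It is the only mouse of the 23 with more Emr4 in MG than in BMDM. Cd300e had no read in all 3 MG libraries of the stage.

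In BMDM, Emr4 was lower in recurrences after IR, at 5.37, 4.44, 51.6 and 8.56 CPM, against 97.1 and 290 CPM after 5 days of IR. The groups did not overlap (-3.49 ± 1.12, adjusted p = 0.0444). The call was lost without the 6 libraries (-4.11, adjusted p = 0.0801) and in 5 of 6 left-out fits, all but that without recurrent mouse 68345 (adjusted p 0.0933 to 0.216), and without the low-count filter (adjusted p = 0.1). Border-associated macrophage genes, summed over 8, stood in the same BMDM groups at 320 to 665 CPM in recurrences after IR, against 2271 to 3292 CPM after 5 days of IR, where 5 of 8 fell, and 202 to 652 CPM in vehicle. None of the 8 was at 0, and their part in the Emr4 values was not tested. Other recurrent BMDM libraries ranged from 1.10 to 34.8 CPM, and neither BLZ945 nor IR+BLZ945 passed against 5 days (adjusted p = 0.405 and 0.186).

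Cd300e (chr11:115051917-115066676) encodes an activating receptor that marks patrolling monocytes. In vehicle BMDM held 11.5, 13.1, 7.18 and 118 CPM, against 0, 0, 0.817 and 0.0652 CPM in MG. The groups did not overlap (7.34 ± 1.64, adjusted p = 0.0022). It was highest after 5 days of IR, at 136 and 196 CPM in BMDM, against 0.0829 and 0.329 CPM in MG (adjusted p = 0.0114; 9.17, adjusted p = 0.0924 without mouse 65698, and 0.112 and 0.141 without MG of mouse 65698 or 65972). In 5-day IR+BLZ945 mice BMDM held 12.5, 2.66 and 7.08 CPM and MG none: 220 reads against 0, at least 59-fold higher in BMDM. That call (adjusted p = 0.0247) was lost without any MG library or BMDM of mouse 65696 (adjusted p 0.055 to 0.0736), and without the 6 libraries (adjusted p = 0.0525).

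The Cd300e values of BMDM split after 5 days of BLZ945. Mice 122 and 123 had no read, and mice 124 and 65975 had 29.2 and 9.99 CPM, against 0.0937, 0.625, 0.273 and 0.184 CPM in MG. The fit gave 5.03 ± 1.52 (adjusted p = 0.0146), although MG was the higher of the pair in mice 122 and 123. The call was lost with the mouse as a block (3.5, adjusted p = 0.17), without BMDM of mouse 124 (adjusted p = 0.0904) and without the 6 libraries (4.08, adjusted p = 0.0678). In recurrences BMDM held 0.899 to 26.6 CPM (median 7.10) and MG 0 to 5.02 CPM (median 0.854), BMDM was higher in 10 of 10 mice, and no stage passed.

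**Figure D4:**
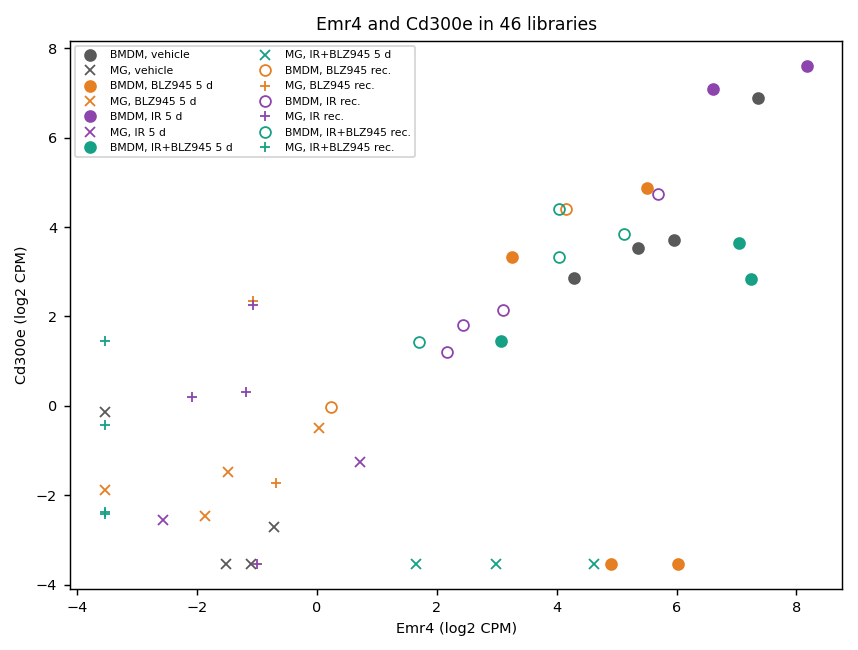
Emr4 (x axis) against Cd300e (y axis), both in log2 CPM with a prior count of 1, in 46 libraries by population and stage. BMDM of both 5-day IR mice and of vehicle mouse 65967 lie at the top right, 3 MG libraries of 5-day IR+BLZ945 carry Emr4 without Cd300e, and BMDM of BLZ945 mice 122 and 123 do so too.

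Emr4 and Cd300e were high in the same BMDM libraries in vehicle and after IR. Vehicle mouse 65967 had the most of both in its group, with 164 and 118 CPM. Among 12 other genes of patrolling monocytes, 3 were higher and 1 lower in BMDM than in MG in vehicle, Pglyrp1 (6.05 ± 1.03, a peptidoglycan-binding protein), Itgal (2.41 ± 0.68, a chain of LFA-1) and, lower, Klf2 (-2.62 ± 0.54). Of 11 relatives in the Ly6, CD300 and EMR families, 2 were higher, Cd97 (4.70 ± 0.70), a member of the EMR family, and Cd300ld (4.31 ± 0.60).

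Emr1 (chr17:57358581-57483529), which encodes F4/80, did not separate the populations in untreated tumours. BMDM held 707, 657, 688 and 807 CPM in vehicle, against 934, 674, 586 and 738 CPM in MG. The ranges overlapped (-0.04 ± 0.26, adjusted p = 0.97). After 5 days of BLZ945 BMDM held 107, 241, 333 and 280 CPM, against 1168, 1026, 1169 and 939 CPM in MG. The groups were wide apart and in the order opposite to the 6 other genes that passed (-2.16 ± 0.28, adjusted p = 1.75e-07), in every alternative and left-out fit.

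Against vehicle, Emr1 fell in BMDM, where the change was -1.56 ± 0.30 (adjusted p = 0.00584), while MG stood at 0.63 ± 0.22 (adjusted p = 0.21). The difference between these responses (-2.13, above) passed in all 5 alternatives and all 16 left-out fits. Among mice with 5-digit numbers, which leave 1 BLZ945 mouse and 2 vehicle mice, the BMDM change was -1.42 (adjusted p = 0.211). In recurrences after BLZ945 BMDM held 1209 and 714 CPM, a rise of 2.02 ± 0.35 against 5 days (adjusted p = 0.00254), which was 1.57 without recurrent mouse 67668 (adjusted p = 0.076). After 5 days of IR BMDM held 1105 and 1251 CPM, against 655 and 534 CPM in MG (0.99 ± 0.38, adjusted p = 0.0952). After 5 days of IR+BLZ945 BMDM held 593, 256 and 502 CPM, against 724, 702 and 644 CPM in MG (-0.62 ± 0.31, adjusted p = 0.181).

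Other markers moved with Emr1 in BMDM after 5 days of BLZ945. Of 9 dendritic cell genes 4 rose against vehicle, and their sum was 2527 to 3990 CPM, against 879 to 1460 CPM. Of 16 microglia genes 8 fell in BMDM and none rose. Their part in the Emr1 fall was not tested, and neither was that of the mix of sexes, which differed from vehicle too. In MG the F-test over stages passed for Emr1 (adjusted p = 0.0192) but not without MG of BLZ945 mouse 122 or 124 (adjusted p 0.0644 and 0.0663) or with number style as a term (0.197), and the MG group means span 1.05 on the log2 scale, against 2.41 in BMDM.

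Vcan (chr13:89655309-89743027) encodes versican, a large matrix proteoglycan that inflammatory monocytes make and that glioma cells and oligodendrocyte precursors make too. It was scarce in both populations: 0.445, 0.575, 1.26 and 0 CPM in BMDM of vehicle mice, against 0, 1.91, 0.371 and 1.04 CPM in MG. The groups overlapped (-0.53 ± 1.45, adjusted p = 0.899), and Vcan did not pass between the populations at any stage, where 0 of 7 tests had an adjusted p under 0.05, 2 had an unadjusted p under 0.05 (5 days of IR and of IR+BLZ945) and DESeq2 called 1, after 5 days of IR. In 6 of the 9 BMDM libraries at 5 days it had no read.

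The highest Vcan value stood in MG of mouse 65971. In the 5-day IR+BLZ945 mice MG held 11.4, 105 and 0 CPM in mice 65696, 65971 and 67537, against the vehicle values above (5.72 ± 1.55, adjusted p = 0.0219). The 3 mice disagree, and the call was lost without mouse 65971 (2.92, adjusted p = 0.221) and without vehicle mouse 41 or 65966 (adjusted p from 0.0783). With 5-digit numbers alone it was 5.69 (adjusted p = 0.162), and the F-test over MG stages (adjusted p = 0.0241) was 0.167 without the 6 libraries, 0.0628 without the low-count filter and 0.0702 with number style as a term. It was also lost without mouse 65971, 41, 65966 or 68345 (adjusted p 0.0502 to 0.163).

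All 20 recurrent libraries held Vcan: 0.899 to 8.01 CPM in BMDM (median 3.13) and 2.95 to 13.2 CPM in MG (median 6.33), where vehicle BMDM and MG held at most 1.26 and 1.91 CPM. Recurrent MG lay above all vehicle MG libraries, but no recurrent stage passed against vehicle in MG (adjusted p 0.206 to 0.317). In recurrences after IR BMDM held 4.69, 3.68, 6.21 and 8.01 CPM, 296 reads against 0 in the 2 BMDM libraries after 5 days of IR, at least 41.9-fold higher, with an adjusted p of 0.0663. MG was the higher of the pair in 9 of 10 recurrent mice.

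Genes of glioma cells and oligodendrocyte precursors were higher in the same libraries. Summed over 10 such genes, recurrent BMDM held 47.6 to 348 CPM, against 0.0849 to 20.7 CPM at 5 days and 6.87 to 14.7 CPM in vehicle. Recurrent MG held 99.6 to 911 CPM, against 4.87 to 65.9 CPM at 5 days and 58.8 to 101 CPM in vehicle. Against vehicle, 7, 7 and 5 of the 10 rose in MG recurrences after BLZ945, IR and IR+BLZ945, and no gene of the list was at 0 in any recurrent group. MG of mouse 65971, by contrast, had its 105 CPM of Vcan with 27.9 CPM of the list, and Olig2 and Gpr17 had no read in MG of its stage. The part of such cells in the Vcan values was not tested.

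**Figure D5:**
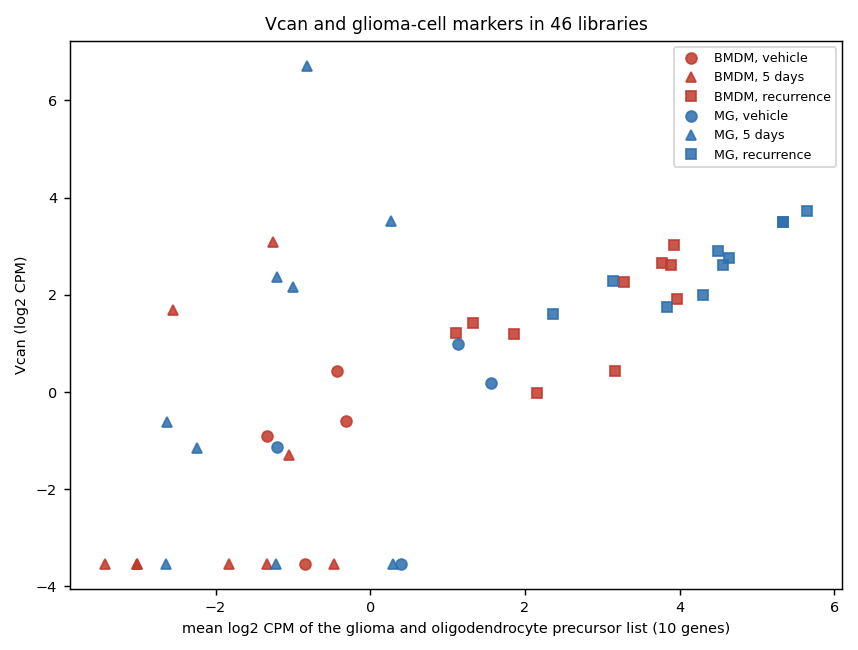
Vcan (y axis, log2 CPM) against the mean log2 CPM of 10 glioma and oligodendrocyte precursor genes (x axis) in 46 libraries by population and phase. The 20 recurrent libraries hold both, and all 5-day and vehicle BMDM libraries lie at lower list values. Vehicle MG reached 1.56 on the x axis, above the lowest recurrent BMDM library (1.10). In MG at 5 days 1 library, of mouse 65971, stands at 105 CPM of Vcan.

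Most stages overlapped with the next in order. In BMDM, Ccr2 ran from 8.88 ± 0.89 log2 CPM (mean ± SD, n = 4) after 5 days of BLZ945 to 6.73 ± 0.71 (n = 4) in recurrences after IR, and all 6 neighbouring pairs in that order overlapped. Plac8 in MG ran from 4.09 ± 0.44 (n = 2) in recurrences after BLZ945 to -0.59 ± 1.46 (n = 4) after 5 days of BLZ945. All neighbours overlapped but 1 pair, in which vehicle lay above 5 days of IR. Cd24a in BMDM ran from 8.23 ± 0.91 (n = 3) after 5 days of IR+BLZ945 to 2.60 ± 1.68 (n = 2) after 5 days of IR, with no overlap between the first and the next, 5 days of BLZ945. Cd300e in BMDM led after 5 days of IR (7.35 ± 0.37, n = 2), above all vehicle libraries, and Emr1 in MG led after 5 days of BLZ945 (10.1 ± 0.15, n = 4), also above all vehicle libraries. Emr4 in MG led after 5 days of IR+BLZ945 (3.09 ± 1.48, n = 3) without overlap with the next stage. All neighbouring stages overlapped for Ly6c2 in both populations, Emr4 and Emr1 in BMDM, and Ccr2, Cd24a, Cd300e and Vcan in MG. Of Plac8 and Vcan in BMDM 1 pair each did not overlap.

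Genes with profiles most like each of the 8 were sought by the root-mean-square (RMS) difference between centred log2 CPM profiles over the 46 libraries, among 7736 genes with a mean of at least 3 log2 CPM in BMDM. The nearest to Ccr2 were Plbd1 (RMS 0.948) and Krt80 (1.01). Cd24a lay nearest to Rara (1.09) and S100a11 (1.30), Plac8 to Unc119 (1.09) and Cyfip2 (1.25), and Ly6c2 to Pfkp (1.45) and S100a11 (1.53). Emr4 lay nearest to Pglyrp1 (1.69), itself a patrolling monocyte gene, and Fam40b (1.77). Emr1 was followed closely by Renbp (0.396) and Lamp1 (0.405), while the best for Cd300e (Serpinb8, 1.93, and Ms4a7, 2.17) and for Vcan (Sun2, 2.12, and Epn1, 2.20) were distant. Profiles were not scaled to each gene's spread, so a gene that varies little lies near others more readily than one that varies widely. The libraries share depth and population, so likeness is a description.

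The other genes of blood-derived macrophages were mostly higher in BMDM in vehicle too. Of 20, 16 were higher in BMDM and none lower, led by Ahr (5.88 ± 0.59), the aryl hydrocarbon receptor, Clec10a (5.75 ± 0.92), a lectin, and the calcium-binding S100a6 (4.95 ± 0.89), with a median log2 fold change of 3.16 over the list and -0.09 over all genes. Of 16 other inflammatory monocyte genes 9 were higher, among them Ifitm6 (5.62 ± 0.77) and Hp (5.32 ± 1.36), haptoglobin. Both CD24 partners were higher, Selp (5.99 ± 1.75), P-selectin, and Siglecg (3.70 ± 0.73). Of 16 versican partners and proteases, 13 could be tested, 2 were higher, Selp and the hyaluronan receptor Cd44 (3.30 ± 0.42), and 1 lower, the protease Adamts1 (-5.22 ± 0.84).

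Transcripts used as markers of other cells were compared in vehicle as well, though their levels cannot tell which cells the CD49d+ gate held. Of 16 microglia genes 15 were lower in BMDM, led by Sall3 (-4.85 ± 0.89), Sall1 (-4.81 ± 0.91) and Gpr56 (-4.50 ± 0.71). Of 8 genes of border-associated macrophages 5 were higher (Cd209f 5.23 ± 1.24, Cd163 4.46 ± 1.11, Lyve1 3.54 ± 1.07), as were 8 of 9 dendritic cell genes (Cd209a 7.18 ± 0.80, Ccr7 7.13 ± 0.87, Kmo 6.64 ± 0.83). T and NK cell genes were higher in 7 of 12 cases (Gzmb 6.04 ± 1.73, Nkg7 5.96 ± 1.41, Gzma 5.86 ± 1.71) and B cell genes in 3 of the 5 tested (among them Ms4a1 6.63 ± 1.77 and Cd79a 6.23 ± 1.34). Among neutrophil genes Retnlg (6.26 ± 2.05) and Mmp9 (5.16 ± 1.50) were higher and Csf3r was lower (-1.09 ± 0.36), and among plasmacytoid dendritic cell genes Ly6d was higher (6.61 ± 1.66) and Cox6a2 lower (-3.89 ± 0.61). Of the brain lists, 1 gene each was lower in BMDM: Cspg4 of glioma and oligodendrocyte precursors (-4.48 ± 0.90), Syt1 of neurons (-4.68 ± 1.53), Slc1a3 of astrocytes (-4.66 ± 0.82) and Folr1 of choroid plexus (-3.99 ± 1.26). None of 5 endothelial genes and not the 1 testable erythroid gene passed. Dendritic cells, T cells and B cells can carry CD49d, although most T and B cells lack CD11b and the gate should remove them. The part of such cells in the excess of Ccr2 and Cd24a in BMDM was not tested.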

How the data were processed

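RNA of sorted BMDM and MG from 23 mice was sequenced with a Smart-Seq kit, which uses no molecular identifiers. The deposited values are raw counts of reads per gene symbol, not normalized. The tools named per the submitters' processing notes are STAR 2.5.0e, CASAVA 1.8, DESeq2 and HTSeq, on mm10. Annotation and strand setting are not given in the sources used here. Overlapping or antisense genes cannot be told apart.

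Genes were tested with edgeR 4.0.16 (limma 3.58.1, R 4.3.3): quasi-likelihood test, TMM scaling, filterByExpr (minimum count 10, minimum total 15) and Benjamini-Hochberg adjustment at 0.05 within each comparison. A joint fit of 46 libraries (15901 genes) served BMDM against MG and the difference in response. Fits of 23 MG (14534 genes) and 23 BMDM libraries (14568 genes) served the stages. Levels are CPM on TMM-adjusted totals, or log2 CPM with a prior count of 1. All genes were fitted, and only the 8 and the lists are printed. Promoters are RefSeq's.

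Replicates are mice. No replicate libraries were duplicates (smallest chi-square per degree of freedom 10.7). Both libraries of a number are labelled as 1 mouse, though those of mouse 65698 differ in sex-linked genes, and the correlation of their deviations from group means had a median of 0.153 (-0.0941 to 0.442), over 0.1 in 13 of 23 mice. Alternatives were DESeq2 1.42.0, RLE size factors, no low-count filter, both populations in 1 fit, a term for number style, 5-digit mice alone, the mouse as a block, leaving out the 6 libraries and each library in turn. Counting intervals are 95% and floors 3 reads over a group, and both cover counting error only. The test was checked on simulated counts, with changes set only in well-read genes and only at the vehicle and 5-day BLZ945 stages. That check does not cover genes with few reads or the stages with the fewest mice.

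The 8 genes and the lists were chosen with earlier results of these data known. Named list genes are the up to 3 of largest fold change that passed in vehicle, besides Ccl7, Ccl12, Flt3, Zbtb46, Olig2 and Gpr17, chosen after their values were seen, and for each of the 8 the 2 genes of nearest profile. Ccl2 and Ccl8 are named only to give the whole list of CCR2 ligands. Some list genes that this rule names are not reported here.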

Additional observations from a re-analysis of the deposited data

Results flagged for a closer look

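In 7 of 64 groups of 4 libraries, 1 library lay far from the other 3 on the log2 CPM scale, by a gap above Dixon's 95% critical value for 4 samples. The values are printed as CPM below, a scale on which the gaps were not tested. Chance alone flags about 1 in 20 such groups where values are normally distributed. That rate does not hold for groups with libraries at 0 or with a few reads. A pair of these concerns MG of vehicle mouse 65967, the lowest of its group for Ly6c2 (0.0652 CPM, the others from 0.446 to 0.593) and for Plac8 (2.80 CPM, the others from 8.11 to 9.51). In Vcan, BMDM of 5-day BLZ945 mouse 122 held 3.15 CPM where the other 3 had no read, and BMDM of recurrent IR+BLZ945 mouse 67947 held 6.02 CPM. Emr4 was lowest in MG of recurrent IR mouse 68346 (0.151 CPM), Cd24a highest in MG of recurrent IR+BLZ945 mouse 67543 (22.1 CPM) and Emr1 lowest in BMDM of recurrent IR mouse 68343 (575 CPM).

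The responses of BMDM and MG to 5 days of BLZ945 differed for Plac8 (3.83, BMDM minus MG, less the vehicle difference) and for Emr1 (-2.13) by the test of the difference itself. Emr1 was lower in BMDM than in MG in 4 of 4 BLZ945 mice, by 1.75 to 3.45 on the log2 scale, and Plac8 was higher in BMDM in 4 of 4, by 6.65 to 11.2.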

How the results depend on the processing

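Of 55 passing results of single genes, 27 passed in every alternative and left-out fit, 266 of 303 alternative values and 431 of 538 left-out values passed, and 2 values changed sign, both of Ly6c2 after 5 days of IR (BMDM over MG, -3.16 without the 6 libraries, and -2.27, the lowest of left-out fits that reached 8.37, without BMDM of mouse 65698). The counts of passing genes moved by more than 1.5 times as follows. DESeq2 called 8 rather than 5 between populations after 5 days of IR, 6 rather than 3 against vehicle in MG, 6 rather than 3 for recurrence in BMDM and 4 rather than 2 for the difference in response. Without the 6 libraries these were 2 after 5 days of IR, 6 against vehicle in MG and 1 for the difference in response. Without the low-count filter there were 0 rather than 1 between populations in recurrences after BLZ945 and 1 rather than 2 against vehicle in BMDM, which 1 fit over all libraries also gave. The number style term left 2 rather than 5 in the F-test in MG. The causes were not tested, beyond fewer libraries where some were left out. With the mouse as a replicate block, the pairing ended 2 calls between populations (Cd300e after 5 days of BLZ945, Ly6c2 after 5 days of IR) and added 1 (Cd24a in recurrences after IR+BLZ945), and it changed no other call. Leaving out 1 library gave 5 to 6 genes between populations in vehicle, 6 to 8, 2 to 5 and 3 to 5 after 5 days of BLZ945, IR and IR+BLZ945, and 0, 2 to 3 and 2 to 3 in the recurrences. It gave 0 to 4 and 1 to 2 against vehicle in MG and BMDM, 4 to 6 and 1 to 4 for recurrence, 4 to 6 and 3 to 5 for the F-test, and 1 to 2 for the difference in response. The stages with 2 mice then rest on a lone library assumed to vary like the rest, and genes under about 1 CPM rest on a few reads.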
